A study of Bos taurus with 6 samples.

Results

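The interleukins, their soluble inhibitors and their receptors were examined in intramuscular fat (IMF) of steers and bulls of the Chinese Qinchuan breed. Members were all rows of the mRNA count table whose symbol begins with IL and a digit, with IL8 left out, which gave 77 of 25444 genes. They comprised 37 ligands, 4 soluble inhibitors and 36 receptor genes. IL28RA, an older symbol of the interferon lambda receptor gene IFNLR1, also met this rule and was counted with the receptors.

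The steers were males castrated surgically at 6 months of age, and the bulls were left intact. Both groups were weaned at 3 months, received the same diets and were slaughtered at 24 months, and the paper states that all came from a single sire. IMF was dissected from the sternomandibularis muscle, and RNA of the animals of a group was pooled into 1 library, so that there were no replicates (n = 1 pool per group). The series text gives 6 animals behind each pool and the sample labels give 3. Ion Proton reads were counted per gene, with totals of 12677375 in the steer pool and 9868415 in the bull pool. Markers of fat cells were abundant in both pools, with 4513 and 6651 reads of the adipocyte hormone gene ADIPOQ in steers and bulls, but so was the skeletal muscle actin gene ACTA1, with 13852 and 19910 reads.

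Interleukins are secreted signals that immune, stromal and fat cells use to influence each other. Most of them act through receptors built from a private chain, which binds the ligand, and a shared chain, which passes the signal on through Janus kinases (JAK) and STAT transcription factors. Members of the interleukin-1 and interleukin-17 families instead use receptors that recruit adaptor proteins such as MYD88. In fat, macrophages, lymphocytes and mast cells carry many of the private chains, and stromal and fat cells also carry shared chains.

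Many interleukin genes had fewer reads in the steer pool, and no interleukin gene was called higher there. Of the 55 members with a read in either pool, 15 were called lower in steers and 0 were called higher. For comparison, 8.13% of the 17752 genes with a read were called lower and 4.37% were called higher. The 15 genes were the ligand genes IL33 and IL32, the inhibitor genes IL1RN and IL18BP, and the receptor genes IL10RA, IL2RB, IL2RG, IL7R, IL15RA, IL21R, IL12RB1, IL6R, IL18R1, IL1R2 and IL1RL2. Without the limit of 2-fold, calls rested on an adjusted p under 0.05 in the exact binomial test alone. In this setting 3535 of the 17752 genes were higher in steers and 3254 were lower. Of the members 19 were lower and 5 were higher, and the 5 were IL17D, IL1RL1, IL17RC, IL11RA and IL27RA. Of these 5, IL1RL1 and IL27RA kept an adjusted p under 0.05 when the pools were scaled by total counts, and the other 3 did not. None of the 5 stayed under 0.05 in an exact test of edgeR that assumed a coefficient of variation of 0.2 between pools. Markers of T, NK and myeloid cells were lower in steers as well, with 12 of 14, 4 of 4 and 9 of 11 genes called. In RNA of whole tissue, fewer cells of a type and less RNA per cell cannot be told apart.

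Calls required a change of more than 2-fold and an adjusted p under 0.05, from a two-sided exact binomial test of the reads of a gene in the 2 pools with Benjamini-Hochberg adjustment over all 17752 genes. Log2 fold changes are steers over bulls after scaling by size factors of 1.04 and 0.959, and ranges in brackets are 95% Clopper-Pearson intervals that cover counting error only. The test compares these 2 pools and not the conditions, because castration and library cannot be told apart with 1 library each. When an exact test of edgeR assumed a coefficient of variation of 0.4 between pools, only IL2RB of the 15 genes remained called, whereas an assumed value of 0.2 left 10 of them and lost IL6R, IL21R, IL15RA, IL1R2 and IL1RL2.

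A gene with fewer than 7 reads in all could not be called lower however its reads were divided, and 8 were needed for a call in the other direction. No read was counted for 22 members, and 16 had between 1 and 5 reads. The remaining 39 members had at least 7 reads, and 38.5% of them were called lower, against 9.61% of all 15020 genes with as many reads. None of the 39 was called higher, against 5.17% of the 15020 genes. Irrespective of the test, 18 of the 39 were more than 2-fold lower (12.2% of the 15020 genes were) and 1, IL6, was more than 2-fold higher (7.66% were). Further, 30 of them had a log2 fold change below 0 and 9 above 0, where the shares of the 15020 genes were 49.1% and 50.9%. The median of the 39 was -0.70, and that of the 15020 genes was 0.01.

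**Figure D1:**
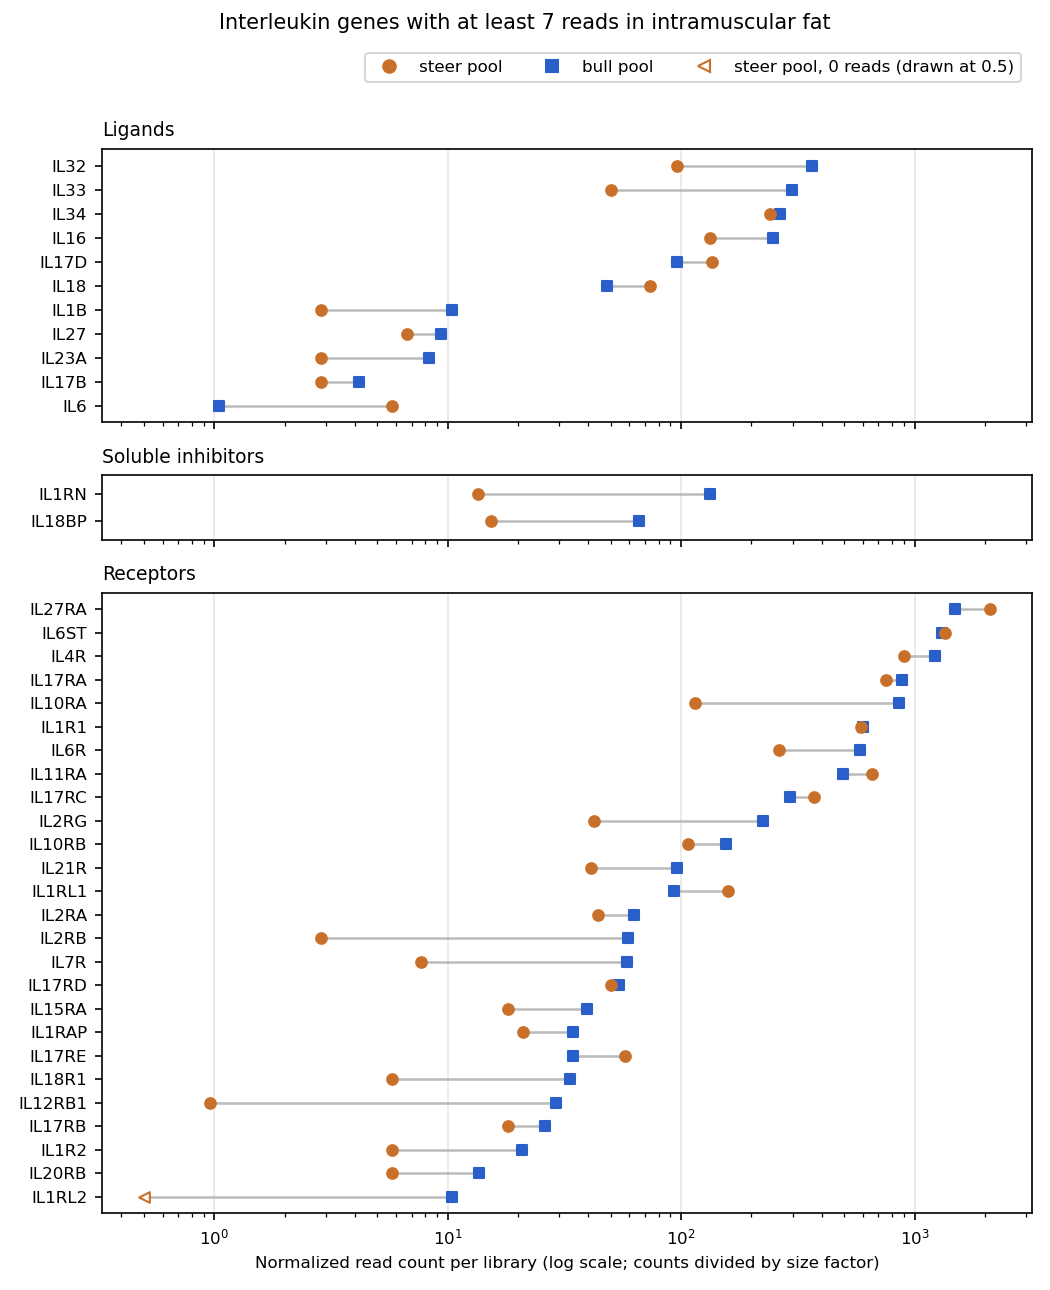
Normalized read counts (log scale, reads divided by the size factor of the library) of the 39 interleukin genes with at least 7 reads, in the steer pool (circles) and the bull pool (squares), with ligands, soluble inhibitors and receptors apart. A line joins the 2 pools for each gene, and the open triangle marks 0 reads. Among genes with reads in both pools the longest lines are those of IL12RB1 and IL2RB. The length of the line of IL1RL2 depends on where 0 is drawn.

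Among the 19 ligands with a read, IL33 and IL32 were the 2 genes called lower in steers, a share near the 8.13% of all genes. Among the 11 ligands with at least 7 reads it was 18.2%, against 9.61% of all genes with as many reads. IL33, an alarm signal of the interleukin-1 family that barrier, endothelial and stromal cells release when they are injured, had 52 reads in steers and 286 in bulls. Its change on the log2 scale was -2.58 (-3.04 to -2.15), with an adjusted p of 2.9e-43 in the exact binomial test. IL32, a cytokine gene of T and NK cells among others, had 100 and 347 reads, at -1.92 (-2.25 to -1.59). The bull pool thus held about 5.99 times the normalized reads of IL33 and 3.78 times those of IL32. IL33 overlaps the pseudogene LOC101902527 in the RefSeq gene table (ARS-UCD2.0), and sharing of reads was not tested. Pseudogenes also overlap IL16, IL34 and IL6ST there. IL16, whose product attracts CD4-bearing cells, had 139 reads in steers and 237 in bulls. At -0.89 (-1.20 to -0.58) it did not pass the 2-fold limit, which it passed at -1.13 when the pools were scaled by total counts.

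The other ligands with many reads were within 2-fold in the 2 pools. IL34, the second ligand of the macrophage receptor CSF1R, had 250 reads in steers and 253 in bulls. This was a log2 fold change of -0.14, with an interval of -0.40 to 0.12. IL17D, a member of the interleukin-17 family, had 141 and 92 reads, at 0.49 (0.10 to 0.89), which became 0.25 with total counts. IL18, an inflammasome product that stimulates lymphocytes, had 77 and 46 reads, at 0.62 (0.08 to 1.18), and an adjusted p of 0.0616 in the exact binomial test. Neither IL17D nor IL18 was called.

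Classical inflammatory and lymphocyte ligands were scarce. IL6 had 6 reads in steers and 1 in bulls, and IL1B had 3 and 10. Their intervals, -0.58 to 7.99 for IL6 and -4.36 to 0.10 for IL1B, both held 0, so that no difference was detectable at this depth. IL27 had 7 and 9 reads, IL23A 3 and 8, and IL17B 3 and 4. IL12B was not seen in steers and had 5 reads in bulls, and it was not called (adjusted p = 0.114, exact binomial test). IL7 had 4 and 1 reads, IL1A 0 and 3, IL10 2 and 2, and IL25 1 and 1. IL2, IL15 and IL12A each had 1 read, in the steer pool. A total of 18 ligands had no read in either pool, namely IL3, IL4, IL5, IL9, IL13, IL17A, IL17C, IL17F, IL19, IL20, IL21, IL22, IL24, IL26, IL36A, IL36G, IL37 and IL1F10. A count of 0 allows up to 3 reads, or 0.237 CPM (counts scaled to the library total) in steers and 0.304 CPM in bulls. The 19 ligands with a read had a median log2 fold change of -0.14, and the 13 with more than 3 reads in a pool had one of -0.54 without a prior count, with the gene at 0 set to the floor of 3 reads.

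Both soluble inhibitors that had reads were called lower in steers, against 8.13% of all genes with a read. IL1RN, the antagonist that occupies the interleukin-1 receptor without activating it, had 14 reads in steers and 128 in bulls. This was a log2 difference of -3.31 (-4.23 to -2.52), or 9.95 times the normalized reads in bulls, with an adjusted p of 4.2e-25 in the exact binomial test. IL18BP, which binds free interleukin-18, had 16 and 63 reads, at -2.10 (-2.99 to -1.29). Its target IL18 lay on the other side of 0, at 0.62 and at 0.38 with total counts, but was not called. The counting intervals of the 2 genes did not overlap. IL36RN, the antagonist of the interleukin-36 receptor, and IL22RA2, a soluble receptor of interleukin-22, had no read in either pool.

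**Figure D2:**
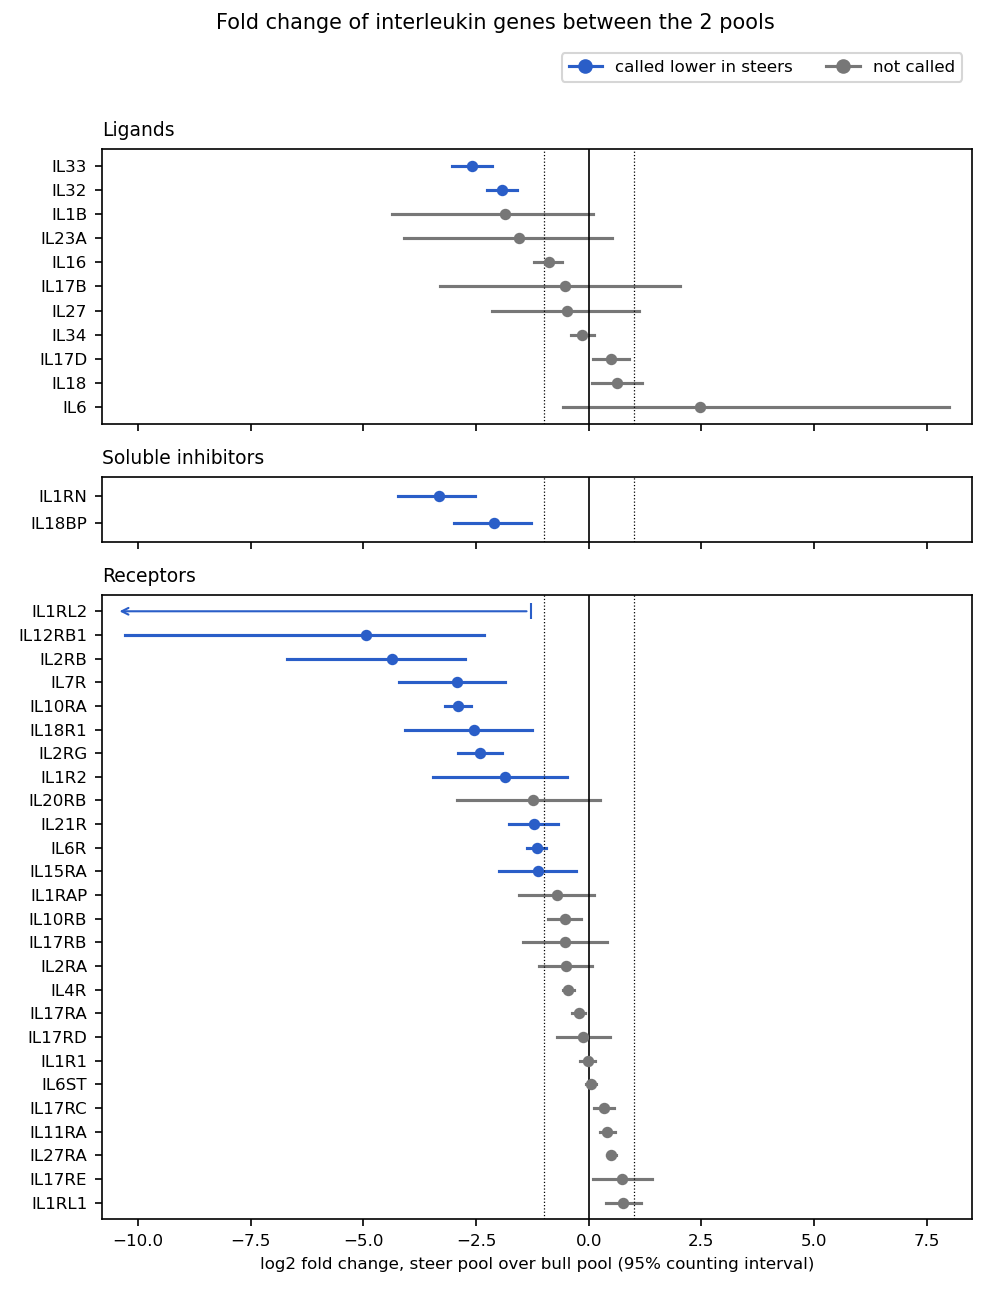
Log2 fold change, steers over bulls, of the 39 interleukin genes with at least 7 reads, with 95% counting intervals as bars and dotted lines at 2-fold. Genes called lower are in blue, the arrow gives the open interval of IL1RL2, which had 0 reads in steers, and IL1RL1 with 0.77 lies farthest to the right among the receptors.

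Of the 34 receptor genes with a read, 11 were called lower in steers. Among the 26 with at least 7 reads this was 42.3%, against 9.61% of all genes with as many reads. They included 5 of the 8 receptor genes of the common gamma chain family, which serves interleukins 2, 4, 7, 9, 15 and 21. Each of the 8 lay below 0 on the log2 scale, where 49.1% of all genes with at least 7 reads lay. The intervals of IL2RA and IL9R held 0, and IL9R had only 1 and 2 reads. IL2RG, the common gamma chain itself, had 44 reads in steers and 214 in bulls. This gave -2.40 (-2.91 to -1.93), with an adjusted p of 6.6e-30 in the exact binomial test. IL2RB, the chain that signals for interleukins 2 and 15, had 3 and 57 reads, and with 20.7 times the normalized reads in bulls it reached -4.37 (-6.69 to -2.75). It was the member that remained called under all alternatives tried. IL7R, which naive and memory T cells need for survival, had 8 and 56 reads, at -2.93 (-4.21 to -1.85). IL21R, found on B, T and NK cells, had 43 and 92 reads, at -1.22 (-1.78 to -0.68). IL15RA, which presents interleukin-15 to neighbouring cells, had 19 and 38 reads, at -1.12 with an upper bound of -0.29, and was not called at -0.96 with a prior of 5 counts. IL15RA also overlaps FBH1 in the RefSeq gene table (ARS-UCD2.0). Only whole gene spans were compared, and the use of strand is not given in the sources used here. Whether reads of a shared stretch were counted for the other gene was not tested. The same limit holds for IL27, IL1RAP and IL17RA, whose spans overlap those of APOBR, GMNC and LOC132345351 in that table. It also holds for IL23A, whose span overlaps those of STAT2, PAN2, CNPY2 and CS.

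In contrast, IL4R, the receptor chain of interleukins 4 and 13, had 937 reads in steers and 1176 in bulls, at -0.45 (-0.58 to -0.32). IL2RA, the high-affinity chain of the interleukin-2 receptor that activated and regulatory T cells carry, had 46 and 60 reads, at -0.51 (-1.09 to 0.07). Neither was called. IL9R had 1 and 2 reads, and the interleukin-5 receptor gene IL5RA, which is in the beta chain family, had 2 and 3.

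The interleukin-10 receptor was split between its chains. IL10RA, the private chain of leukocytes, had 120 reads in steers and 823 in bulls, the largest total among the members that were called lower. This gave -2.90 (-3.19 to -2.62), with an adjusted p of 5.8e-141 in the exact binomial test. IL10RB, the chain that is shared with the receptors of interleukin-22 and interferon lambda, had 112 and 149 reads, at -0.53 (-0.90 to -0.17), and was not called. The epithelial receptor genes of this family were scarce, with 6 and 13 reads of IL20RB, 4 and 0 of IL22RA1, 0 and 2 of IL20RA and none of IL28RA. IL10RA overlaps SMIM35 in the RefSeq gene table.

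Receptors that signal through gp130, the product of IL6ST, had many reads and lay on both sides of 0. IL6R, the chain that binds interleukin-6, had 273 reads in steers and 558 in bulls and was called lower, at -1.15 (-1.37 to -0.94). IL6ST had 1402 and 1252 reads, at 0.04 (-0.07 to 0.15), which became -0.20 with total counts. IL11RA had 688 and 475 reads, at 0.41 (0.24 to 0.58), which became 0.17 with total counts (adjusted p = 0.102, exact binomial test). IL27RA had 2190 and 1424 reads, at 0.50 (0.40 to 0.60), an interval above 0 but well within 2-fold, which became 0.26 with total counts, and it overlaps PALM3 in the RefSeq gene table.

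Of the related interleukin-12 and interleukin-23 receptors, IL12RB1, the chain that both use, was called lower with 1 read in steers and 28 in bulls. The value of -4.93 was the farthest from 0 of the members with reads in both pools. The interval was wide, at -10.28 to -2.33. This rank rested on 1 read in steers. With a prior of 5 counts IL12RB1 lay at -2.58, nearer to 0 than IL2RB (-3.08), IL1RN (-2.93) and IL10RA (-2.85). IL12RB2 had 0 and 2 reads and IL23R had 1 and 2, too few for any call. The interleukin-31 receptor gene IL31RA, whose product pairs with the oncostatin M receptor, had 0 and 1 reads.

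Within the interleukin-1 receptor family, 3 of the 7 genes with a read were called lower, against 8.13% of all genes with a read. IL18R1, the binding chain for interleukin-18 on T and NK cells, had 6 reads in steers and 32 in bulls, at -2.54 (-4.09 to -1.26). IL1R2, a decoy that binds interleukin-1 without signalling, had 6 and 20 reads, at -1.86 (-3.46 to -0.49). IL1RL2, the interleukin-36 receptor, had 0 and 10 reads, and its interval on the log2 scale ended at -1.29. IL18RAP, the partner of IL18R1, had 0 and 5 reads, which was not called. By contrast IL1R1, the signalling receptor of interleukin-1, had 616 and 575 reads and lay at -0.02 (-0.19 to 0.14). Its partner chain IL1RAP had 22 and 33 reads, at -0.71 (-1.56 to 0.11).

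IL1RL1, the receptor of interleukin-33, had more reads in steers, 165 against 89 in bulls. This was a log2 difference of 0.77 (0.39 to 1.16), with an adjusted p of 0.00022 in the exact binomial test, and it missed the call because it did not reach 2-fold. With an assumed coefficient of variation of 0.2 between pools, IL1RL1 did not stay under 0.05 in the exact test of edgeR. Its ligand gene IL33 lay at -2.58, and the 2 intervals, which cover counting error only, were far apart. IL1RL1 and IL18R1 overlap in the RefSeq gene table, so that reads of the overlap cannot be told apart. Their log2 fold changes had opposite signs, and sharing of reads was not tested. In that table IL1R2, IL1R1, IL1RL2, IL1RL1, IL18R1 and IL18RAP follow each other with no other protein-coding gene in between, so that neighbours in this cluster ranged from 0 reads in steers (IL1RL2) to more reads in steers (IL1RL1). IL1RAPL2, a receptor-like gene expressed in neurons, had no read.

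None of the 5 interleukin-17 receptor genes was called, a tally near the shares of all genes with a read (8.13% lower and 4.37% higher). IL17RA, the chain common to most of these receptors, had 788 reads in steers and 846 in bulls, at -0.22 (-0.37 to -0.08). IL17RC, its partner for interleukin-17A, had 387 and 281 reads, at 0.34 (0.11 to 0.57), which became 0.10 with total counts. The neighbouring gene IL17RE, the receptor of interleukin-17C, had 60 and 33, at 0.74 (0.10 to 1.40), which became 0.50 with total counts. The adjusted p of IL17RE was above 0.05 in the exact binomial test. IL17RD had 52 reads in each pool. IL17RB had 19 and 25 reads, at -0.52 (-1.46 to 0.40). Of the ligands that bind these receptors, IL17A, IL17C and IL17F had no read.

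Over the 34 receptor genes with a read, the median log2 fold change was -0.86, and it was -0.62 without a prior count over the 28 with more than 3 reads in a pool, with the 3 genes at 0 set to the floor of 3 reads. The summed reads of the receptors were 8021 in steers and 8428 in bulls, and after scaling they differed by -0.19 on the log2 scale. The 8 receptor genes with the most reads summed over both pools (IL27RA, IL6ST, IL4R, IL17RA, IL1R1, IL11RA, IL10RA and IL6R) took 87.4% of receptor reads in steers and 84.6% in bulls, and 2 of them, IL10RA and IL6R, were called lower. Read numbers also depend on transcript length, so these sums do not rank the receptors by level.

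Chains that work in the same receptor were then compared within each pool, a ratio that does not depend on the scaling. These 13 pairs were chosen after the reads had been seen, from textbook receptor complexes. The ratio was lower in steers in 3 pairs, higher in 8 and had an interval that held 0 in 2. These counts are not independent, because 6 pairs have IL2RG as the partner, 4 of them among the 8, and IL2RG itself was called lower. For IL10RA over IL10RB the ratio was 1.07 in steers and 5.52 in bulls, a log2 difference of -2.37 (-2.83 to -1.90). For IL6R over IL6ST it was 0.195 and 0.446, at -1.19 (-1.44 to -0.95). The ratio of IL2RB to IL2RG was also lower in steers, at -1.97 (-4.34 to -0.24). For IL7R over IL2RG the interval held 0, at -0.53 (-1.90 to 0.68).

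For the other private chains of the gamma chain family tested, the ratio to IL2RG was higher in steers. IL4R had 21.3 reads per read of IL2RG in steers and 5.50 in bulls, a log2 difference of 1.95 (1.46 to 2.47). IL2RA stood at 1.90 (1.13 to 2.67), IL15RA at 1.28 (0.27 to 2.26) and IL21R at 1.18 (0.44 to 1.93). The IL1RL1 to IL1RAP ratio was 7.50 in steers and 2.70 in bulls, at 1.48 (0.55 to 2.41). Smaller differences were seen for IL17RC over IL17RA at 0.56, IL27RA over IL6ST at 0.46 and IL11RA over IL6ST at 0.37.

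**Figure D3:**
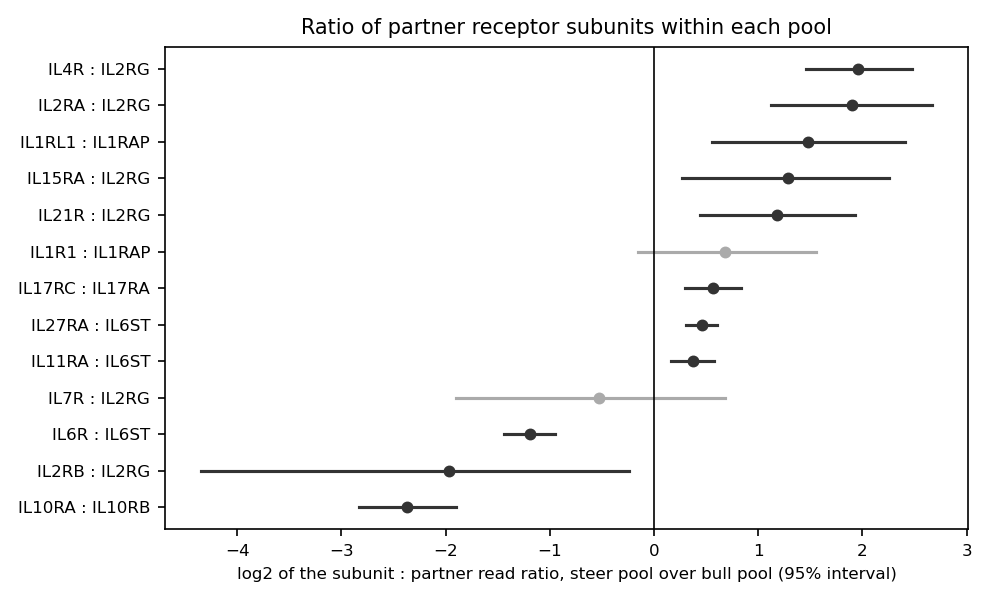
Log2 of the read ratio of a receptor chain to its partner chain, steers over bulls, for 13 pairs, with exact conditional 95% intervals as bars. Pairs whose interval holds 0 are in light grey, IL10RA over IL10RB is lowest at -2.37 and IL4R over IL2RG is highest at 1.95.

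Genes that act with the interleukin receptors were taken from lists of known pathway members. For these lists and the marker lists below, the comparison is with all genes with a read. Of those, 8.13% were called lower and 4.37% higher. Of 13 partner ligand and receptor genes with other symbols that were in the table, 2 were called lower. CSF2RB, the chain shared by the receptors of interleukins 3 and 5, had 164 reads in steers and 368 in bulls, at -1.29 (-1.56 to -1.02). OSM, a macrophage and neutrophil ligand of the gp130 family, had 0 and 10 reads, with an interval on the log2 scale that ended at -1.29. CSF1R, the receptor of IL34, had 7057 and 12309 reads, at -0.92 (-0.97 to -0.88), and is also among the myeloid markers. CSF1, the other ligand of that receptor, had 1420 and 1546 reads, at -0.24 (-0.35 to -0.14). The median of the 12 partner genes with a read was -0.57.

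Of the 11 JAK and STAT genes 1 was called lower, a share near the 8.13% of all genes. This was JAK3, the kinase that binds the common gamma chain. It had 160 reads in steers and 310 in bulls, at -1.08 (-1.36 to -0.80). JAK1 had 3427 and 3461 reads, at -0.14, and STAT3, the main STAT of gp130 receptors, had 1971 and 1747, at 0.05. Of the 8 genes of the SOCS feedback family, which STAT signals induce, SOCS3 was called lower with 69 and 233 reads, at -1.88 (-2.29 to -1.48), as was SOCS1 with 14 and 38 reads, at -1.56 (-2.56 to -0.65). SOCS5 had 566 and 374 reads, at 0.48, and CISH had 244 and 195, at 0.20.

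For interleukin-1 and interleukin-17 signalling, 3 of 12 genes in the table were called lower, all of them parts of the inflammasome that processes interleukin-1 beta and interleukin-18. NLRP3, its sensor, had 44 reads in steers and 164 in bulls, at -2.02 (-2.53 to -1.53). PYCARD, its adaptor, had 111 and 332 reads, at -1.70 (-2.03 to -1.39). CASP1, its protease, had 12 and 48 reads, at -2.12 (-3.17 to -1.19). The adaptor gene MYD88 had 907 and 1129 reads, at -0.44, and IRAK2 had 654 and 437, at 0.46. The median of this list was -0.23, that of the JAK and STAT genes was -0.14 and that of the SOCS genes was also -0.14.

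Markers of leukocytes were lower in steers together with these interleukin genes. Of 14 T cell markers, 12 were called lower, their sum was 215 reads in steers and 1298 in bulls, and CD3E had the most reads (35 and 253). CD3G had no read in steers. All 4 NK cell markers in the table were called lower, with sums of 4.02 and 56.9 CPM and NKG7 the most abundant by reads, and KLRK1 and KLRD1 had no read in steers. Of 11 myeloid markers 9 were called lower, with a sum of 1648 CPM in steers and 4472 in bulls, CSF1R with the most reads and none at 0. Of 5 mast cell markers 4 were called lower, with sums of 35.9 and 97.1 CPM and TPSB1 the most abundant by reads. B cell markers summed to 3.00 and 19.1 CPM, 3 of 9 were called lower, CD22 had the most reads, MS4A1 and CD79B had no read in either pool and PAX5 had none in steers.

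The marker lists of resident cells had medians nearer to 0. None of the 9 endothelial markers was called, and their median was -0.19, with PECAM1 the most abundant by reads. The 9 adipocyte markers had a median of -0.02, with 1 called lower and 1 higher, and the gene with the most reads was CIDEC. Skeletal muscle markers had a median of -0.65, with 2 of 9 called lower, 1 called higher and ACTA1 the most abundant by reads. Fibroblast markers had a median of 0.94, with 2 of 8 called higher and COL3A1 the most abundant by reads. None of the genes in these 4 lists was at 0 in either pool. The part of leukocyte number in the lower reads of the interleukin genes was not tested.

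**Figure D4:**
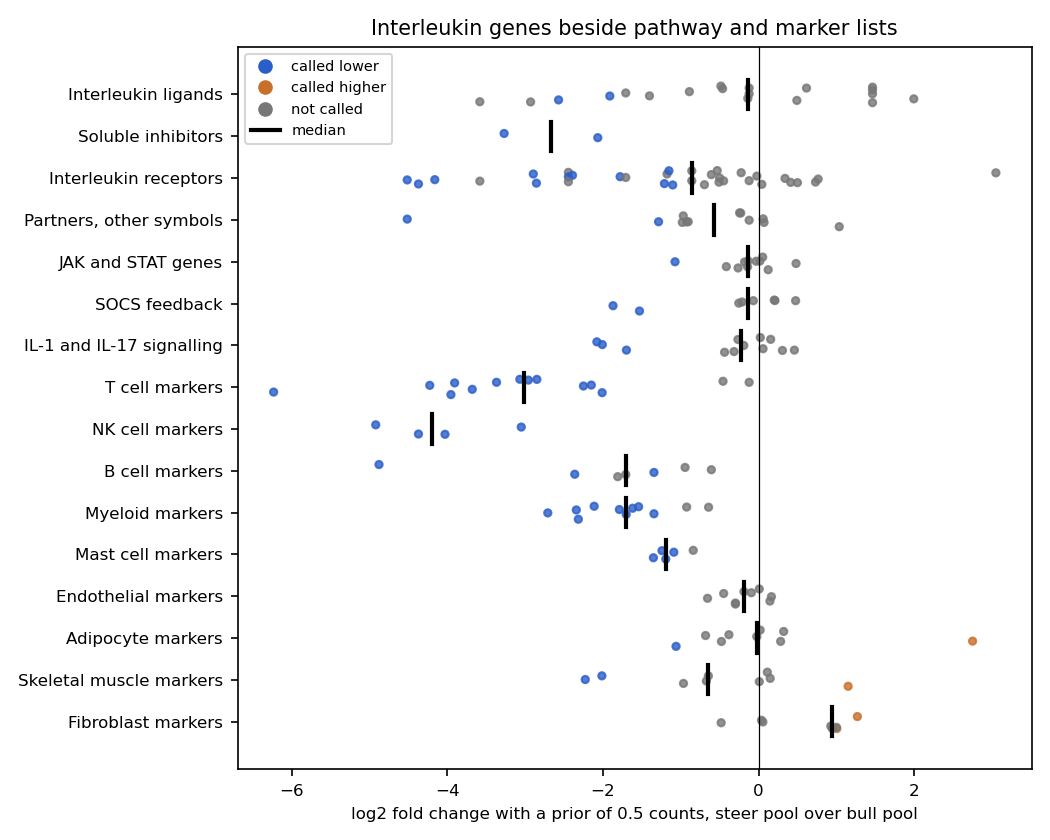
Log2 fold changes with a prior of 0.5 counts, steers over bulls, of every gene with a read in the interleukin, pathway and marker lists, where each point is a gene and the black bar is the median of its list. The medians of the interleukin ligands and receptors are -0.14 and -0.86 (-0.89 and -0.61 over genes with at least 10 reads), T cell and NK cell markers have medians of -3.01 and -4.20, and the endothelial median is -0.19.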

How the data were processed

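The authors pooled RNA within each group, trimmed adaptors and dropped reads of low quality before alignment to the bovine genome by MapSplice, and deposited raw, unnormalized counts of each gene. How reads were counted, and whether by strand, is not given in the sources used here. The submitters' processing notes name BWA and a human genome build for all samples, which differs from the paper. Groups come from the sample titles. The miRNA counts were not used.

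Libraries were scaled by the median of ratios (numpy 2.4.6) and compared with a two-sided exact binomial test that doubles the smaller tail (scipy 1.17.1), with Benjamini-Hochberg adjustment over all genes with a count. The test was tried on simulated counts that held counting error only, so this trial says nothing about spread between pools. Medians use a prior of 0.5 counts, except those with genes at 0 set to the floor, which use no prior. Intervals of pair ratios are exact conditional intervals. Reads are not independent molecules, so intervals and floors cover counting error only. Alternatives were total counts, TMM factors and assumed coefficients of variation in edgeR 4.0.16 (R 4.3.3), a minimum of 10 counts, a prior of 5 counts and no fold limit, and another definition of the exact p was added after the data were seen.

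Genes were named if they were called, had at least 50 counts in a library, or had 0 counts in 1 library and at least 10 in the other. The remaining members are given by their counts, some of them also with a log2 fold change, an interval or an adjusted p. Of pathway lists, called genes and the 2 with the most counts were named, with other genes chosen after their values were seen. The members and lists were chosen with earlier results of these data known. Of the 77 symbols, 75 are symbols in RefSeq's table and 1 is an older symbol there. RefSeq positions (ARS-UCD2.0) were used only to find neighbouring and overlapping genes, and sequences and transcript lengths were not used here.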

Additional observations from a re-analysis of the deposited data

How the results depend on the processing

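Scaling by total counts shifted the log2 fold change of all genes by -0.24, so that their median was -0.23. Under it IL6ST moved from 0.04 to -0.20 and IL16 was also called lower, and the 15 interleukin genes stayed called. They also stayed called with TMM factors, with at least 10 counts over both pools and with the other definition of the exact p. The median of the ligands moved to -0.89 with at least 10 counts, which leaves fewer genes in it, and that of the receptors to -0.61, so that the order of the 2 medians turned. Without a fold limit 19 members were called lower in steers and 5 higher, beside 3254 genes lower and 3535 higher in the whole table. The 5 were 1 ligand (IL17D) and 4 receptors (IL1RL1, IL17RC, IL11RA and IL27RA). This tally of members depended on the scaling and on the assumed spread between pools. None of the 5 stayed under 0.05 in the exact test of edgeR with an assumed coefficient of variation of 0.2. With total counts IL17D (0.25, adjusted p = 0.3495), IL17RC (0.10, 0.570) and IL11RA (0.17, 0.102) were no longer under 0.05 in the exact binomial test, and IL34 (-0.38), IL1R1 (-0.26), IL2RA (-0.74) and IL6ST came under 0.05 on the lower side. With a prior of 5 counts IL15RA was lost, and 14 genes were called in every setting with counting error alone. An assumed coefficient of variation of 0.2 left 10 members called lower, 6 of them receptors. Among all genes, 762 were called lower and 368 higher at this value. At 0.4, 1 member was called lower, which was 1 receptor, with 0 ligands and 0 inhibitors, beside 93 genes lower and 52 higher in the whole table. No spread between pools could be measured. No paired analysis was possible because each group has 1 mRNA library. Depth limits the 38 members with fewer than 7 reads, for which no call was possible.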
